A study of Mus musculus with 12 samples.

Results

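The genes described here encode the subunits of the 5 complexes of oxidative phosphorylation that are made from nuclear DNA. They were taken as every row of the expression table whose symbol begins with Nduf, Sdha to Sdhd, Uqcr, Cox4 to Cox8 or Atp5, leaving out symbols that end in -ps, with or without a number, which mark pseudogenes. That gave 93 of 28793 genes, of which 81 were counted as subunits: 36 of complex I, 4 of complex II, 8 of complex III, 17 of complex IV and 16 of complex V. The complex V count includes Atp5l2, which the rule kept although the gene annotation calls it a processed pseudogene. The other 12 members carry the same prefixes. They are 7 complex I assembly factors (Ndufaf1 to Ndufaf7), 2 complex II assembly factors (Sdhaf1 and Sdhaf2), Atp5s and Atp5sl, which are not subunits, and Ndufa4l2, a paralog of Ndufa4. Ndufa4 itself is counted with complex IV, where its protein sits.

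The electron transport chain sits in the inner mitochondrial membrane. Complex I oxidises NADH and complex II oxidises succinate, and both pass electrons to ubiquinone. Complex III hands them on to cytochrome c, complex IV reduces oxygen, and complex V uses the proton gradient so built to make ATP. All complexes but complex II mix proteins from nuclear and mitochondrial genes, so their assembly draws on 2 genomes. In the colon, mature absorptive cells take much of their energy from oxidising butyrate, and the stem and progenitor cells at the crypt base are generally described as more glycolytic.

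RNA had been sequenced from large intestine of C57BL/6 mice aged 3 months, in 12 libraries. GFP-sorted crypt base columnar cells, which the labels call stem and progenitor cells, came from mTert heterozygous mice (3 libraries) and from mTert null mice of generation 3 (null G3, 3 libraries). Unsorted crypt epithelial cells came from mTert heterozygous mice (2 libraries), from mTert null mice of generation 4 (null G4, 2 libraries) and from generation 4 epithelium labelled as having mTert reactivated (2 libraries). Tert encodes the reverse transcriptase of telomerase, so null mice lose telomere length with each generation. The heterozygous controls carry 1 lost Tert copy, and the labels do not say what drives the GFP. They tag the heterozygous libraries G0 and the reactivated ones G4tam, without spelling out tam or how telomerase was reactivated. They call libraries of a group biological replicates without tying them to animals or cultures, so each p-value speaks of the spread among the libraries sequenced, and part of that spread may be technical.

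Levels are deposited RPKM, which are reads scaled to gene length and sequencing depth. Tert lay at 0.0424, 0.0583 and 0.169 RPKM in sorted heterozygous and at 0, 0.0787 and 0.00131 RPKM in sorted null G3 libraries. The unsorted heterozygous libraries had 0.459 and 0.251 RPKM, against 0.00778 and 0.0377 in null G4. The libraries labelled reactivated had 0.0171 and 0.0311 and did not stand above null G4 in Tert, and sorted null G3 replicate 2 lay within the heterozygous range. Sorted null G3 replicate 1 went against its label. Lgr5, the crypt base stem cell marker, was at 0.121 RPKM there and at 3.4 to 4.74 in the other 5 sorted libraries, while 7 small intestinal enterocyte markers summed to 5420 RPKM against 86.1 to 132 in the others. The null G3 comparison is given with and without that library. Lgr5 was 0.453 to 0.928 RPKM in unsorted crypts. Both mitochondrial ribosomal RNAs together took 38.7% to 71.9% of the summed RPKM in sorted and 10.8% to 27.3% in unsorted libraries, which lowers every other RPKM value in a library. The Y-linked gene Ddx3y was at 4.73 and 4.78 RPKM in the unsorted heterozygous libraries and 4.75 in reactivated replicate 2, but at most 0.00574 in the 2 null G4 libraries and reactivated replicate 1. The sorted null G3 libraries had 0.00281, 1.75 and 0.00587 RPKM, and the sorted heterozygous ones 0.00504, 0.00204 and 0.00596. Sorted and unsorted heterozygous libraries thus differed in it throughout, and sorted null G3 replicate 2 differed from the other sorted libraries.

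All 93 genes were listed in every library, and 78 were at 1 RPKM or more in all 12. Another 5 stayed under 1 RPKM everywhere. They were the tissue-restricted complex IV isoforms Cox4i2, Cox6a2 and Cox8b, the paralog Ndufa4l2 and Atp5l2, which the gene annotation (GENCODE release M21) calls a processed pseudogene. Cox6b2, the testis form of Cox6b1, reached 1 RPKM in 1 library, at 1.99 in sorted heterozygous replicate 2, and gave 0.142% to 2.42% of the RPKM of Cox6b1 and Cox6b2 together. The crypt epithelium therefore carried the widely expressed forms Cox4i1, Cox6a1, Cox6b1 and Cox8a.

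The most abundant subunit RNAs encoded the ATP synthase head and complex IV. In sorted heterozygous cells Atp5b, the catalytic beta subunit of F1, led with a mean of 353.7 RPKM (366.9, 414.5 and 279.7 in the 3 libraries). Atp5a1, the alpha subunit, followed with a mean of 183.2 RPKM, ahead of Cox6a1 at 115.7 and Cox8a at 110.7. In unsorted heterozygous crypts Cox8a (mean 218.7 RPKM), Atp5a1 (214.5), Cox6b1 (182.5) and Atp5b (179.6) led. Atp5b thus ranked first in sorted cells and behind 3 other genes in unsorted crypts. Across the 87 genes tested in both preparations the heterozygous levels kept much of their order (Spearman rho 0.86, a description over genes that share libraries and gene lengths).

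Summed by complex, sorted and unsorted heterozygous levels were apart for complexes I, III and IV and overlapped for complexes II and V. The 16 genes counted in complex V summed to 849.0 ± 156 RPKM (SD, n = 3) in sorted heterozygous cells. In unsorted heterozygous crypts they summed to 909.6 ± 160 (SD, n = 2), and the libraries overlapped. The 8 complex III subunits summed to 232.1 ± 37 RPKM (n = 3) against 566.8 ± 98.4 (n = 2), with no overlap. The 36 complex I subunits summed to 623.1 ± 114 against 971.2 ± 168 RPKM and the 17 of complex IV to 723.9 ± 119 against 1268 ± 208, both without overlap. Complex II, with 156.0 ± 24.2 against 178.9 ± 36.4 RPKM, overlapped. In bulk RNA, fewer cells of a type and less RNA per cell cannot be told apart.

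Gene by gene, 41 of 87 tested members were lower in sorted than in unsorted heterozygous libraries and 1 was higher (limma on log2(RPKM + 1), adjusted p under 0.05), where 31.3% of all 11862 genes tested were lower and 4.32% higher, 35.6% in all. Groups did not overlap for 59 members on the lower side and 6 on the higher, where 54.9% and 20% of all genes did so, and 44.8% of all genes had an unadjusted p under 0.05. Differences below are on this log2 scale, which understates the change of genes at low levels. The median difference of the members was -0.77 on the log2 scale, beside -0.39 over all genes, so the members lay 0.38 below the median gene. The sorted and unsorted columns list different numbers of genes and appear to have been normalized separately, so a level set across them carries that limit. Other scalings kept the median below 0 (-0.38 to -0.96). Then 32 to 54 members were lower, where 2491 to 4645 of the 11862 genes were. Without unsorted heterozygous replicate 2 the median was -0.60, or 0.27 below that of all genes. Without replicate 1 of that group it was -0.99, or 0.56 below. With 1 sorted heterozygous library left out, the count of lower members was lowest, at 25, without replicate 3, where 2904 genes were lower. Counts without an unsorted heterozygous library rest on 1 library in that group and are not given. The count was 50 without sorted null G3 replicate 1, where 5331 genes were lower. That library's only part in this comparison is in the shared estimate of spread. Among heterozygous libraries, sex (Ddx3y) and sorting cannot be told apart. A term for Ddx3y, added after seeing the data and resting on the null G3 and reactivated libraries that vary in it, gave a median of -0.98. It called 24 members lower and 0 higher, where 2540 genes were lower and 166 higher.

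Markers of cell types also differed in this contrast. Absorptive colonocyte markers summed to 506 to 1040 RPKM in sorted and 1010 to 3400 in unsorted heterozygous libraries (3 of 6 lower, median -2.63). In that list Ceacam1 went the other way, at 470, 414 and 385 against 160 and 246 RPKM, and did not pass. Deep crypt secretory markers summed to 64.9 to 289 against 1370 to 1500 RPKM (1 of 4 lower, median -2.42). Goblet cell markers summed to 1160 to 2070 against 4170 to 4410 RPKM (4 of 9 identifiers lower, median -2.24). Stem cell markers summed to 141 to 167 against 85.3 to 86.3 RPKM (1 of 7 higher) and proliferation markers to 115 to 145 against 48.9 to 51.3 (0 of 5 passed). In value, 1 goblet identifier and 1 stem cell marker went against the rest of their lists. Enteroendocrine markers were split, with 2 of 4 above 0 and 2 below, of which 1 passed as lower. The part of these cell types in the members' differences was not tested.

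**Figure D1:**
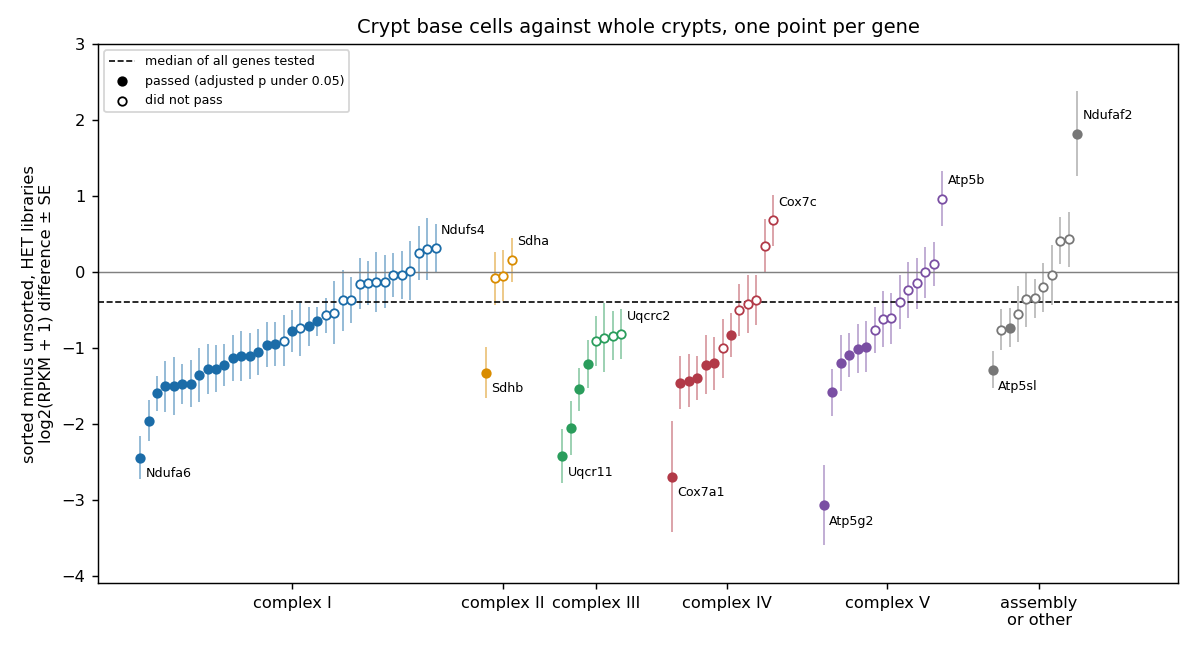
Each point is 1 gene, placed by complex (x) and by its sorted minus unsorted difference in heterozygous libraries on the log2(RPKM + 1) scale (y), with bars of 1 standard error. Filled points passed at an adjusted p under 0.05, and the dashed line is the median of all genes tested, -0.39. Atp5g2 is lowest at -3.07, and Ndufaf2 is the filled point above 0, at 1.82.

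Complex I transfers electrons through 7 nuclear-encoded core subunits, surrounded by accessory subunits that hold and stabilise the enzyme. Of the 7 core genes 5 were lower in sorted cells, and of 29 accessory genes 15 were. Ndufa6, an accessory subunit of the matrix arm that works with an acyl carrier protein, had the largest difference. It lay at 16.1, 13.1 and 12.7 RPKM in sorted heterozygous libraries and at 72.0 and 88.7 in unsorted ones, and all 6 sorted libraries lay below all 6 unsorted ones. The log2 difference was -2.44 ± 0.28 (SE; adjusted p = 0.000108). Ndufb8, a membrane arm accessory subunit that is lost when complex I fails to assemble, was at 3.10, 3.31 and 2.60 against 12.4 and 16.9 RPKM (-1.96 ± 0.27, adjusted p = 0.000278). Ndufb7 followed with -1.60 ± 0.23 (adjusted p = 0.000384). Among core subunits, Ndufv1, which binds NADH, had means of 12.3 against 35.2 RPKM (-1.50 ± 0.38, adjusted p = 0.0101), and Ndufs1, the largest core subunit with iron-sulfur clusters, 8.88 against 18.3 RPKM (-0.96 ± 0.29, adjusted p = 0.025).

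Other complex I genes did not pass. Ndufs4, a late-assembling accessory subunit, had the highest value of the complex, with 22.9, 26.1 and 16.3 RPKM in sorted and 14.9 and 19.3 in unsorted libraries (0.31 ± 0.31, adjusted p = 0.472), and the groups overlapped. Ndufb9, at means of 91.9 against 90.0 RPKM, differed by 0.014 ± 0.39. Levels of genes of 1 complex thus differed between the preparations by anything from -2.44 to 0.31 on the log2 scale.

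Complex II, the succinate dehydrogenase that also serves the tricarboxylic acid cycle and is wholly nuclear-encoded, was split. Sdhb, its iron-sulfur subunit, was at 15.6, 15.3 and 11.7 RPKM in sorted and 31.6 and 42.8 in unsorted heterozygous libraries (-1.32 ± 0.34, adjusted p = 0.0111). Sdha, the flavoprotein that binds succinate, was at 52.4, 47.2 and 46.6 against 37.6 and 50.2 RPKM, with overlap (0.16 ± 0.29, adjusted p = 0.714). The membrane anchors Sdhc and Sdhd lay beside Sdha, at -0.05 and -0.09. So 1 of the 4 subunits passed, and Sdhb no longer did without unsorted heterozygous replicate 2.

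Complex III had the lowest median difference, -1.06, and 5 of its 8 genes were lower in sorted cells. The small subunit gene Uqcr11 was at 17.1, 17.8 and 14.4 RPKM in sorted and 81.3 and 105.2 in unsorted heterozygous libraries (-2.43 ± 0.36, adjusted p = 0.000443). Uqcrc1, a core protein of the matrix side, was at 26.8, 26.4 and 16.8 against 88.9 and 108.5 RPKM (-2.06 ± 0.35, adjusted p = 0.00108). Its partner core protein Uqcrc2 differed less in value and did not pass, with means of 28.8 against 51.2 RPKM (-0.82 ± 0.33, adjusted p = 0.0733). Uqcrq, a subunit that binds ubiquinone with cytochrome b, had -1.55 ± 0.28 (adjusted p = 0.00157), and the Rieske iron-sulfur protein Uqcrfs1 had -1.21 ± 0.32 (adjusted p = 0.0118).

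In complex IV 7 of 13 tested genes were lower in sorted cells. Cox7a1, known as the heart and muscle isoform of subunit VIIa, had the largest difference. It was at 2.48, 1.29 and 2.64 RPKM in sorted and at 13.1 and 27.0 in unsorted heterozygous libraries (-2.69 ± 0.74, adjusted p = 0.0149). It no longer passed without unsorted heterozygous replicate 2, or under median scaling or quantile normalization. The widely expressed paralog Cox7a2 was at 30.9, 35.7 and 23.4 against 69.4 and 99.3 RPKM (-1.46 ± 0.35, adjusted p = 0.00777). Cox7a2l, the other gene of the family, did not pass (means of 37.1 against 49.7 RPKM, -0.42 ± 0.38). The members that passed also included Cox6b1 (-1.43), Cox5a (-1.40), Cox4i1 (-1.22) and Cox5b (-1.20), while Cox8a at -1.01 and Cox6a1 at -0.50 did not. On the other side Cox7c was at 66.0, 80.2 and 57.4 RPKM in sorted and 36.3 and 47.8 in unsorted libraries, without overlap, and did not pass (0.68 ± 0.34, adjusted p = 0.142). Ndufa4 had 0.34 ± 0.36.

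Complex V divides into the catalytic F1 head and the membrane Fo part with its stalk. Of the 5 F1 genes, Atp5e alone was lower (-0.98 ± 0.34, adjusted p = 0.0409), while 5 of 10 tested Fo and stalk genes were. Atp5b was at 366.9, 414.5 and 279.7 RPKM in sorted and 158.0 and 201.1 in unsorted heterozygous libraries. All 3 sorted values lay above both unsorted ones, and the difference of 0.97 ± 0.37 did not pass (adjusted p = 0.0615). It passed under median scaling (1.36, adjusted p = 0.0023), quantile normalization (1.49, 0.0014) and rescaling without mitochondrial RNA (0.76, 0.0474). Its partner Atp5a1 was at means of 183.2 against 214.5 RPKM (-0.24 ± 0.37), and the gamma subunit Atp5c1, which turns inside the head, at 67.4 in both. Atp5j2, a membrane subunit, was lower at 16.7 against 52.4 RPKM (-1.59 ± 0.31, adjusted p = 0.00238).

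The largest difference within a family was in Atp5g1, Atp5g2 and Atp5g3, which encode the same mature ring subunit c of complex V with different import sequences. Atp5g2 was at 2.60, 6.25 and 3.04 RPKM in sorted and 36.0 and 41.7 in unsorted heterozygous libraries (-3.07 ± 0.53, adjusted p = 0.00109). Atp5g1 (means of 10.6 against 16.6 RPKM, -0.62) and Atp5g3 (44.0 against 48.9 RPKM, -0.15) did not pass. As a share of the summed RPKM of the 3 genes, which does not depend on how a library is scaled, Atp5g2 made up 4.06%, 9.59% and 6.56% in sorted heterozygous and 39.1% and 35.8% in unsorted heterozygous libraries. The share was 0.43%, 8.11% and 5.9% in sorted null G3, 34.9% and 34.8% in null G4, and 35.7% and 32.5% in the libraries labelled reactivated. No sorted library reached the lowest unsorted share. Among the Cox7a genes, Cox7a1 made up 1.58% to 4.59% of the family in 5 sorted libraries, 8.74% to 15.1% in unsorted ones, and 35.8% in sorted null G3 replicate 1.

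**Figure D2:**
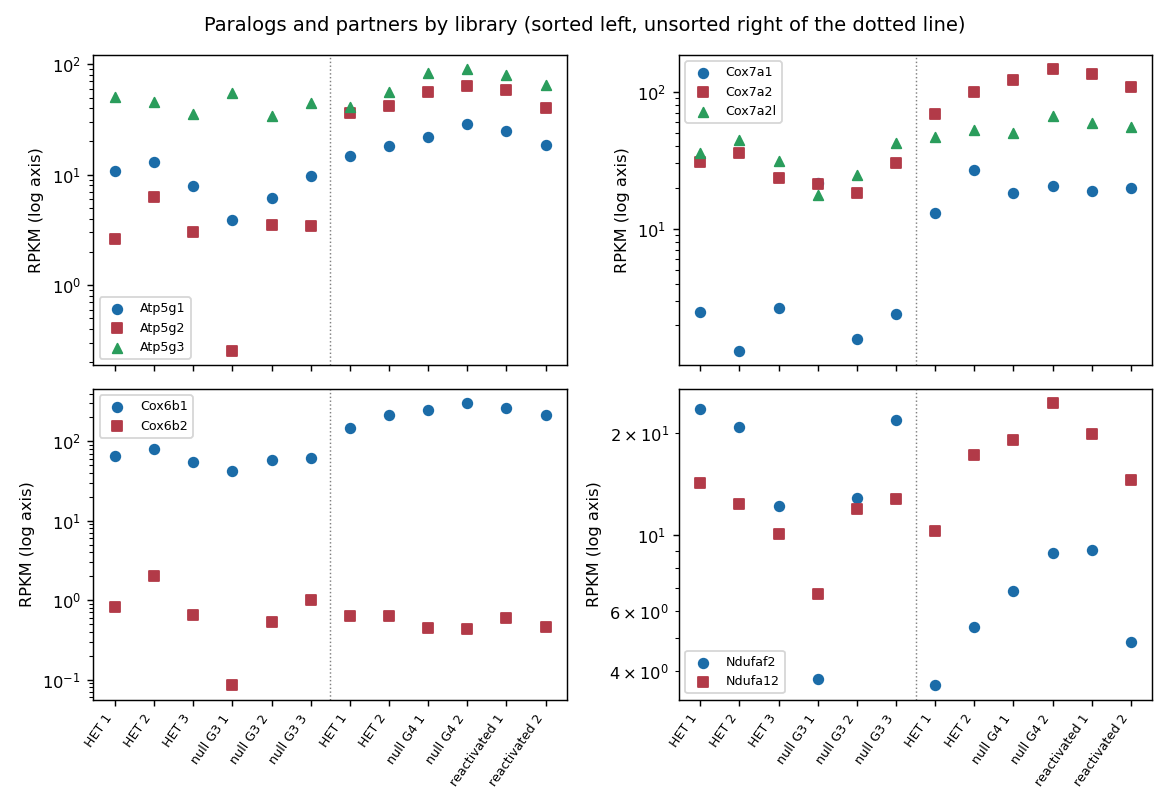
Levels in RPKM (y, log axis) of 3 paralog families and of the assembly factor Ndufaf2 with Ndufa12 in each of the 12 libraries (x), sorted to the left of the dotted line. Atp5g2 lies between 0.253 and 6.25 RPKM in sorted and between 36.0 and 63.9 in unsorted libraries, while Cox7a1 reaches 21.8 RPKM in sorted null G3 replicate 1.

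Ndufaf2 was the 1 member higher in sorted cells. It encodes an assembly factor of complex I, related to the accessory subunit Ndufa12, that leaves the enzyme as Ndufa12 takes its place. It was at 23.5, 20.7 and 12.2 RPKM in sorted and 3.63 and 5.39 in unsorted heterozygous libraries (1.82 ± 0.56, adjusted p = 0.0263), and the groups did not overlap. Without any 1 of sorted heterozygous replicates 1 and 2 or of the 2 unsorted heterozygous libraries it no longer passed (adjusted p 0.0701 to 0.161), nor with no filter on low values (0.0545) or with the Ddx3y term (0.177). Ndufa12 itself was at means of 12.2 against 13.7 RPKM (-0.13 ± 0.35). Exons of Ndufaf2 overlap those of B230220B15Rik on the opposite strand, and no strand setting is given, so reads of the 2 genes cannot be told apart. The other 6 Ndufaf genes ran from -0.73 (Ndufaf6, which passed as lower, adjusted p = 0.0429) to 0.43 (Ndufaf4, which did not).

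The start regions of the member that was higher in sorted cells and of the pair of lowest ones are printed below, with that of Cox7a2 to set beside its paralog Cox7a1. They come from RefSeq on GRCm38.p6 and run from 250 bases before to 50 bases after the annotated start, each 5′ to 3′ on the gene's own strand. Capitals mark matches, on either strand, to motifs searched: GCGCA and GCGC with any 1 base between them for NRF1, CCGGAAG for ETS factors such as GABP, AAGATGGCG for YY1, GGGCGG for SP and KLF factors, TATAAA and CCAAT. Ndufaf2 lies at chr13:108158576-108158875 (minus strand), Atp5g2 at chr15:102670998-102671297 (minus), Cox7a1 at chr7:30183921-30184220 (plus) and Cox7a2 at chr9:79759804-79760103 (minus).
Ndufaf2: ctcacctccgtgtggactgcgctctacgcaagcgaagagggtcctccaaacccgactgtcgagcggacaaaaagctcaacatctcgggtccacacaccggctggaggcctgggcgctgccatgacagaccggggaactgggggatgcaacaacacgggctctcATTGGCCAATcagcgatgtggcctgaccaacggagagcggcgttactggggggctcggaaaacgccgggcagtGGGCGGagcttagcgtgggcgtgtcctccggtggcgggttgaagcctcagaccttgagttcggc
Atp5g2: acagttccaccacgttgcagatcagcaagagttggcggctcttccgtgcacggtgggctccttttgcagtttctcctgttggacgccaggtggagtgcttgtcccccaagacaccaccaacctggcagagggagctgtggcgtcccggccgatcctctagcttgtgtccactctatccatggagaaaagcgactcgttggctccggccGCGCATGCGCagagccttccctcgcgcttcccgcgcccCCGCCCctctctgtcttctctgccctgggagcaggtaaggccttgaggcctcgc
Cox7a1: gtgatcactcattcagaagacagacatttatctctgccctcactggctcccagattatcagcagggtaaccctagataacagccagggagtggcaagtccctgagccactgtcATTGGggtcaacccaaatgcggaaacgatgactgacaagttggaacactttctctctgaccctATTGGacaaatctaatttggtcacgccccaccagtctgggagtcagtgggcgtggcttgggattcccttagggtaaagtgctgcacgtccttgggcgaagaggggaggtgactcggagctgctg
Cox7a2: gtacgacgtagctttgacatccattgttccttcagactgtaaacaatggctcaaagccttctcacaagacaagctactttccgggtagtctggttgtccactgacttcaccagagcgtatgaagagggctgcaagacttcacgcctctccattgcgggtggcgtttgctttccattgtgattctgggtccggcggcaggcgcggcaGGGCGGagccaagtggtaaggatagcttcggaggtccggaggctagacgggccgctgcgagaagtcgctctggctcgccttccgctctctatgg
The Atp5g2 window holds an NRF1 match and a GGGCGG match, and that of Cox7a1 holds 2 CCAAT matches only. Those of Ndufaf2 (GGGCGG and 2 adjacent CCAAT matches, on opposite strands) and Cox7a2 (GGGCGG) hold no NRF1 match.

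Windows were found for 74 of the 93 members. NRF1 is a factor known for driving nuclear genes of the respiratory chain, and its motif was in the windows of 19 of 74 members (25.7%), against 5.19% of all 27025 genes with a window. The ETS motif was in 19 (25.7%, against 9.93%) and the YY1 motif in 7 (9.46%, against 1.64%). GGGCGG (44.6% against 38.2%) and CCAAT (43.2% against 41.1%) were near the share of all genes, and TATAAA was in 6 (8.11% against 15.7%). Members with an NRF1 match include Ndufa6, Uqcrc1 and Atp5g2, which were lower in sorted cells, and also Sdha, Sdhd, Atp5c1 and Atp5g3, which did not pass. A match is a run of letters and not a measured binding site.

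The 13 subunits that mitochondrial DNA encodes lay on the other side. In heterozygous libraries 9 of 13 were higher in sorted than in unsorted cells, with a median of 2.54 on the log2 scale. The gene mt-Atp6, for a complex V subunit of the proton channel, was at 54.2, 44.4 and 71.3 RPKM in sorted and 2.63 and 3.32 in unsorted heterozygous libraries (3.84 ± 0.36, adjusted p = 3.47e-05). The gene mt-Co1, for the catalytic subunit of complex IV, was the most abundant, at 7470, 6540 and 13400 RPKM in sorted and 5930 and 9800 in unsorted heterozygous libraries, which overlapped. Levels lay far apart within a library: in sorted heterozygous replicate 1, mt-Nd3 was at 1.76, mt-Co3 at 16.1 and mt-Cytb at 3110 RPKM. The reason for that range was not tested, and how reads were counted is not given, so low values here may not give RNA levels. Summed over the 13, mitochondrial subunit RNA was 5.54, 4.65 and 13.1 times the summed RPKM of the 93 nuclear genes in sorted heterozygous libraries, and 2.36 and 3.01 times in unsorted ones.

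**Figure D3:**
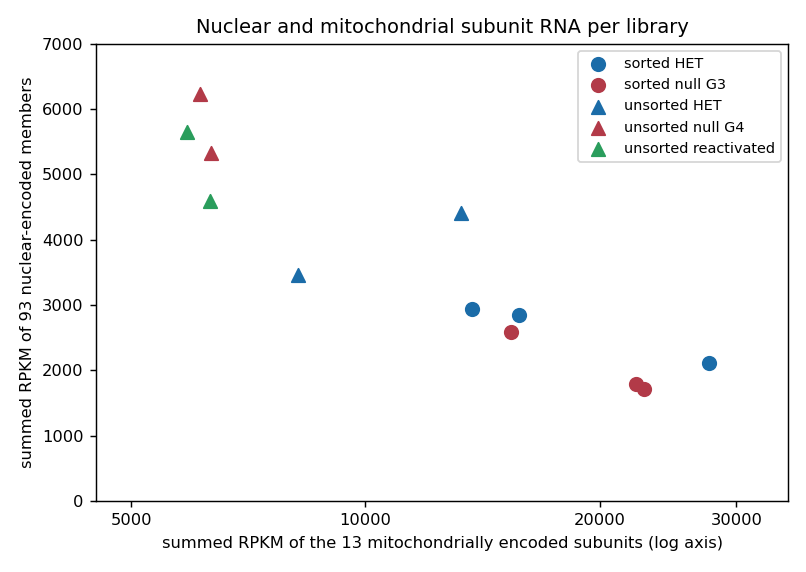
Each point is 1 library, with the summed RPKM of the 13 mitochondrially encoded subunits on the x axis (log) and the summed RPKM of the 93 nuclear genes on the y axis. Null G4 and reactivated libraries lie at 5898 to 6334 RPKM mitochondrial and 4591 to 6227 nuclear, and sorted libraries at 13700 to 27690 and 1718 to 2946.

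In unsorted crypts, null G4 was compared with heterozygous libraries. All 87 tested members had higher means in null G4 than in heterozygous libraries, and none passed (smallest adjusted p = 0.0593, for the complex I accessory gene Ndufc1), where 4.97% of 11464 genes passed as higher and 0.576% as lower, 5.55% in all. At an unadjusted p under 0.05 the count was 50 of 87, against 44.2% of all genes. It was 2 without heterozygous replicate 1 and 2 without null G4 replicate 2. The median log2 difference was 0.56, beside 0.36 over all genes tested, so the members lay 0.20 above a general shift. That margin was 0.06 without heterozygous replicate 1, 0.33 without heterozygous replicate 2 and 0.05 under quantile normalization. Both null G4 libraries lay above both heterozygous ones for 83 of 87 members, where 74.7% of all genes did and 6.5% lay the other way. The direction of the members was thus also that of most genes in these libraries.

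By complex, the medians were 0.64 for complex V, 0.59 for complex II, 0.56 for complex I, 0.51 for complex III and 0.40 for complex IV. Uqcrb, a complex III subunit next to the ubiquinone site, had the highest value. It was at 38.5 and 60.4 RPKM in controls against 84.8 and 98.1 in null G4, with 82.1 and 61.4 in the libraries labelled reactivated. The null G4 values lay above all others, by 0.91 ± 0.28 over heterozygous (adjusted p = 0.0628). Ndufa4 was at 57.3 and 66.5 against 100.7 and 126.1 RPKM (0.86 ± 0.29, adjusted p = 0.0708), Atp5g3 at 41.4 and 56.4 against 83.8 and 90.8 (0.84 ± 0.25, adjusted p = 0.0595), and Ndufa5, a matrix arm accessory subunit of complex I, at means of 15.8 against 28.5 (0.83 ± 0.24, adjusted p = 0.0595). In complex II Sdhc led with 16.8 and 20.6 against 29.5 and 33.7 RPKM (0.73 ± 0.22, adjusted p = 0.06). Their libraries did not overlap between these groups.

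The lowest values in each complex were those of Cox7a1 (0.03 ± 0.30, 13.1 and 27.0 against 18.2 and 20.4 RPKM), Atp5d (0.29 ± 0.22), Ndufa7 (0.36 ± 0.23), Uqcrq (0.36 ± 0.22) and Sdha (0.45 ± 0.24). All but Sdha turned below 0 under median scaling, and all 5 did under quantile normalization. Subunits of the catalytic cores lay between, with Atp5b at 158.0 and 201.1 against 260.9 and 297.9 RPKM (0.64 ± 0.27, adjusted p = 0.103) and Atp5a1 at 190.1 and 238.9 against 306.9 and 374.6 (0.67 ± 0.27, adjusted p = 0.0964). Ndufs1 had 0.69 ± 0.24, Ndufv1 0.43 ± 0.23, Uqcrc1 0.50 ± 0.25, Uqcrfs1 0.63 ± 0.25, Cox4i1 0.38 ± 0.27 and Cox7a2 0.68 ± 0.27, and none of the 6 passed.

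**Figure D4:**
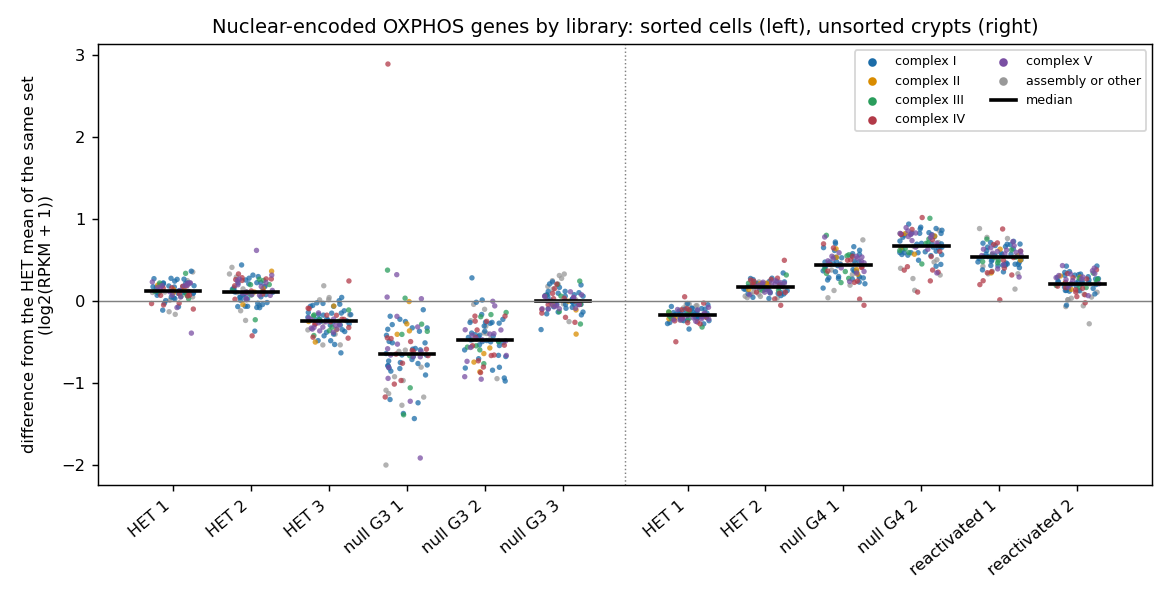
Each point is 1 tested gene in 1 library (x), as its log2(RPKM + 1) minus the heterozygous mean of the same set (y), coloured by complex, and black bars are medians. Unsorted heterozygous replicate 1 sits below replicate 2, null G4 replicate 2 is highest, and reactivated replicate 2 lies near heterozygous replicate 2. The point near 2.9 in null G3 1 is Cox7a1.

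Libraries of 1 group differed among themselves in the same genes. Heterozygous replicate 2 was above replicate 1 for 86 of 87 members (median 0.35, beside 0.08 over all genes), null G4 replicate 2 was above replicate 1 for 84 (median 0.26, beside 0.11), and reactivated replicate 2 was below replicate 1 for 86 (median -0.31, beside -0.27). Heterozygous replicate 1 was the lowest of the 6 unsorted libraries for 84 members and null G4 replicate 2 the highest for 76. So nearly all members moved together between single libraries of a group, by 0.26 to 0.35, beside the 0.56 between groups. Ddx3y was present in both heterozygous libraries and absent or near 0 in both null G4 ones, and with a term for it the median was 0.23, with 1 member at an unadjusted p under 0.05. That term rests on the 2 libraries labelled reactivated, since in the other 2 groups sex and genotype cannot be told apart.

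Scaling moved the size of the null G4 difference more than its sign. It was 0.43 when values were rescaled without mitochondrial RNA, 0.19 with each library scaled to its median gene, and 0.07 under quantile normalization, which left 56 of 87 members above 0. With the spread estimated robustly, 10 of 87 members passed as higher, where 1851 of 11464 genes did. Leaving out either library labelled reactivated, which enters only through the shared spread, left the median at 0.56.

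**Figure D5:**
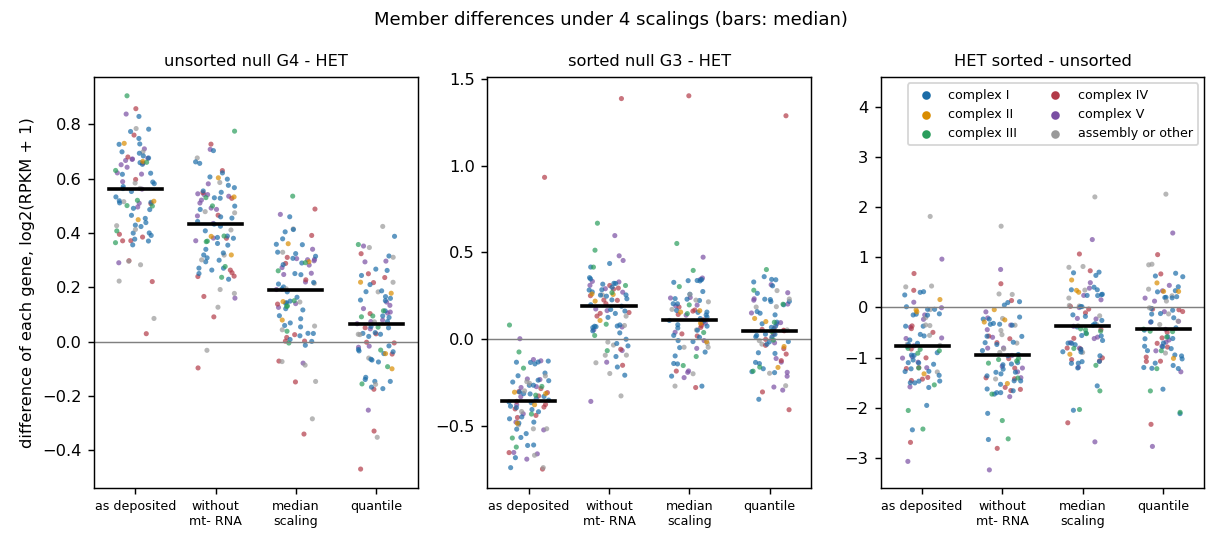
Each point is 1 gene's log2(RPKM + 1) difference (y) under 4 scalings (x) in 3 comparisons, coloured by complex, with black bars at the median. The null G4 median falls from 0.56 as deposited to 0.07 under quantile normalization, the sorted null G3 median goes from -0.36 to above 0 under the other 3, and the sorted minus unsorted median stays below 0 under all 4.

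Markers and other lists moved beside the members. The proliferation markers Mki67, Top2a, Ccnb1 and Birc5 rose in null G4 (4 of 5 passed), with Mki67 at 40.1 and 41.7 RPKM in null G4 against 20.4 and 19.6 in heterozygous libraries, and 31.9 and 22.7 where reactivation was labelled. Deep crypt secretory markers summed to 1500 and 1370 RPKM in heterozygous and to 199 and 232 in null G4 libraries, and the part of either in the members' values was not tested. The mitochondrially encoded subunits went the other way from the nuclear ones. All 11 tested had lower means in null G4 (median -0.76), and mt-Co3 passed, at 8.79 and 12.1 against 5.81 and 4.35 RPKM (-0.91 ± 0.20, adjusted p = 0.0442). It lay far below mt-Co1, at 5930 and 9800 RPKM in the same heterozygous libraries. Mitochondrial over nuclear subunit RNA was 1.19 and 0.982 in null G4, beside the 2.36 and 3.01 of heterozygous crypts given above, and 1.04 and 1.37 where reactivation was labelled.

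Genes that work beside the subunits were followed in lists chosen with earlier results of these data known. In sorted against unsorted heterozygous libraries, where 31.3% of all genes were lower and 4.32% higher, 12 of 28 assembly factors with other symbols were lower, among them Uqcc2, which complex III needs (means of 1.56 against 12.4 RPKM, -2.39 ± 0.34). Of 19 other electron carriers and subunits 5 were lower, and of 14 tricarboxylic acid cycle genes 2 were, Suclg1 (-0.99) and Idh3a (-0.91), both shares below that of all genes. Among 12 regulators of mitochondrial genes 3 were lower and 1 higher. Esrra, a nuclear receptor that acts with PGC-1 coactivators, was at 1.27, 1.80 and 0.818 against 23.3 and 23.3 RPKM (-3.43 ± 0.32, adjusted p = 3.59e-05), and Gabpa, which binds the ETS motif, was higher (1.22 ± 0.29, adjusted p = 0.00659). Of 13 glycolysis genes 7 were lower and Gapdh was higher. In null G4 against heterozygous crypts none of the assembly factors, carriers or cycle genes passed, while 5 of 13 glycolysis genes rose, where 4.97% of all genes did. Hexokinase 2, Hk2, had 33.6 and 35.8 RPKM in null G4 crypts against 12.9 and 14.4 in controls (1.29 ± 0.19, adjusted p = 0.0116). Gabpa rose too (0.66 ± 0.16, adjusted p = 0.0498). Exons of Gabpa overlap those of the member Atp5j on the opposite strand. With no strand setting given, reads of the 2 genes may be shared in both comparisons.

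Against null G4, the libraries labelled reactivated had lower means in 86 of 87 members (median -0.18, beside -0.14 over all genes), and none passed (smallest adjusted p = 0.833), where 0.0262% of all genes passed, 0.0174% as higher and 0.00872% as lower. No member had an unadjusted p under 0.05, where 2.7% of all genes did. Both reactivated libraries lay below both null G4 ones for 11 members, where 25.5% of all genes did and 4.58% lay the other way. Uqcrb had the lowest value among subunits (-0.36 ± 0.28, adjusted p = 0.833) and Cox7a1 the highest (0.02 ± 0.30). The 2 reactivated libraries did not lie together: replicate 1 was above null G4 replicate 1 for 76 of 87 members, and replicate 2 was below it for 77. Without reactivated replicate 2 the median was -0.02. Without replicate 1 it was -0.35, with 13 members at an unadjusted p under 0.05 (smallest adjusted p = 0.0604). It was -0.31 without null G4 replicate 1 and -0.06 without null G4 replicate 2.

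Against heterozygous libraries, those labelled reactivated had higher means in all 87 members (median 0.39, beside 0.22 over all genes), and none passed (smallest adjusted p = 0.331, 3 at an unadjusted p under 0.05, beside 14.1% of all genes), where 1.13% of all genes passed as higher and 0.148% as lower, 1.27% in all. Both lay above both heterozygous libraries for 62 members, where 46.7% of all genes did and 4.42% lay the other way. Atp5g3 had the highest value among subunits (80.6 and 65.6 against 41.4 and 56.4 RPKM, 0.58 ± 0.25, adjusted p = 0.349), and Cox7a1 the lowest (0.05 ± 0.30). Without reactivated replicate 2 the median of the members was 0.54, beside 0.36 over all genes. The median was 0.21 without reactivated replicate 1 and 0.21 without heterozygous replicate 1, where it lay 0.02 above that of all genes, and 0.56 without heterozygous replicate 2. The 3 comparisons among unsorted groups share libraries, so their values are not independent of each other.

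In sorted cells, null G3 was compared with heterozygous libraries. None of 85 tested members passed, and none of 8734 genes did, which is 0% (smallest adjusted p among members 0.481). At an unadjusted p under 0.05 there was 1 member, Atp5sl, against 1.64% of all genes. Means were lower in null G3 for 82 of 85 members (median -0.36), as they were for genes in general (median -0.46), and the sign of the members' median turned under each of the other 3 scalings (0.05 to 0.19). All 3 null G3 libraries lay below all heterozygous ones for 4 members, Sdha, Cox5a, Ndufa4 and Atp5sl, where 12.6% of all genes did, and 0 members lay the other way, where 0.114% did. Without null G3 replicate 1, the library that went against its label, the median was -0.23 and again none passed. Without replicate 3 of that group it was -0.54.

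Sdha had 36.5, 30.8 and 36.5 RPKM in null G3 libraries against 52.4, 47.2 and 46.6 in controls (-0.48 ± 0.40, adjusted p = 0.481). The groups were apart, but by less than the fitted spread could call. The lowest subunit value was that of Cox8a, at 122.8, 130.5 and 78.7 against 47.4, 58.5 and 94.0 RPKM (-0.75 ± 0.47, adjusted p = 0.481), closely followed by Ndufc2 in complex I (-0.74 ± 0.46), Atp5g2 in complex V (-0.69 ± 0.53) and Uqcr11 in complex III (-0.62 ± 0.41). Without null G3 replicate 1 these were -0.54 for Cox8a, -0.39 for Ndufc2, -0.08 for Atp5g2 and -0.40 for Uqcr11, and Sdha was at -0.52. The highest was that of Cox7a1, at 2.48, 1.29 and 2.64 against 21.8, 1.59 and 2.41 RPKM (0.93 ± 0.72, adjusted p = 0.481). Its high value was in null G3 replicate 1 alone, and without that library the difference was -0.05. Uqcrfs1 (0.08), Atp5g3 (0.003), Ndufa11 (-0.13) and Sdhb (-0.31) had the highest values of their complexes, and without null G3 replicate 1 they were at -0.07, -0.16, -0.02 and -0.45.

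Null G3 replicate 1 was the lowest sorted library for 54 of 85 members and replicate 2 for 28, while replicate 3 differed by a median of -0.13 from heterozygous replicate 1 and by 0.25 from heterozygous replicate 3. Members made up 1.21%, 1.13% and 1.38% of the RPKM outside mitochondrial genes in sorted heterozygous and 1.69%, 1.40% and 1.25% in null G3 libraries. In unsorted crypts the share was 1.86% and 2.46% with the heterozygous genotype, 2.75% and 3.01% without Tert, and 2.78% and 2.40% with the reactivated label. On that scale the null G3 libraries did not lie below the heterozygous ones as a group.

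Whether the null effect differed between sorted and unsorted cells was tested as an interaction over all 12 libraries, though generation differs between the sets too. No member passed, where 0.303% of 11862 genes passed, all as lower. The median was -0.91 for the members and -0.73 for all genes, and 20 of 87 members had an unadjusted p under 0.05, where 26.1% of all genes did. Ndufa4 had the lowest value (-1.51 ± 0.51, adjusted p = 0.19) and Cox7a1 the highest (0.90 ± 1.04). Without sorted null G3 replicate 3, 20 of 87 members passed as lower, where 3484 of 11862 genes did. Without replicate 1 of that group no member did, where 197 genes did. Under quantile normalization the median was -0.007.

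The members are short genes, with a median exon length of 1801 bases against 4011 over all genes tested. In the sorted against unsorted comparison, genes under 2000 bases had a median of -0.64. Those of 2000 to 4000 bases had -0.465 and those of 4000 bases or more -0.27. The 51 members under 2000 bases had -0.86 and the 36 longer ones, of median length 3220 bases, -0.63. For null G4 against heterozygous the same members had 0.56 and 0.55. The part of gene length in these differences was not tested. Exons of 34 of the 93 members overlap those of another gene, so with no strand setting given their reads may be shared. Among the genes named above as lower or higher in sorted cells that holds for Ndufaf2, Atp5g2 (Mir688), Ndufb8 (Gm20538), Ndufs1 (Eef1b2 and Ino80dos), Cox4i1 (Emc8) and Cox5a (Gm26631), and it also holds for Uqcrb (Gm10767).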

How the data were processed

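Total RNA was sequenced as TruSeq libraries, per the labels' protocols, in 6 sorted and 6 unsorted libraries. The deposited values are RPKM per gene, made by the authors. STAR 2.3.0e and mm10 stand in the submitters' processing notes with no role. Annotation, counter and strand: not given in the sources used here. Members and lists were chosen with earlier results of these data known.

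Values were tested as log2(RPKM + 1) with limma 3.58.1 (R 4.3.3), with a mean trend in the spread, two-sided, and Benjamini-Hochberg adjusted over all genes tested, at 0.05. A gene was tested when the number of libraries with 1 RPKM or more was no smaller than the smallest group fitted. Sorted null G3 against heterozygous used 6 libraries, unsorted comparisons 6, and comparisons across both 12. The fit was tested on simulated data. Tables were handled with pandas 2.3.3. Depth is uncertain: steps in low values gave 74700000 to 103000000 reads in unsorted and 165000000 to 246000000 in sorted libraries. Of these low values 81.7% to 83.7% came out whole in unsorted libraries and 83.9% in sorted heterozygous replicate 2. The share was 41.6% to 56.3% in the other sorted libraries, and reads were not recovered.

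Named genes were the isoform families and a set of core subunits, the highest and lowest subunit of each complex, and up to 10 that passed with the largest change. Where no member passed in the comparisons with reactivated libraries and across both sets, the highest and lowest subunit overall were named instead of those of each complex. Coordinates and overlaps come from GENCODE M21 (GRCm38), and promoters from RefSeq GRCm38.p6. Alternatives were quantile normalization, median scaling, rescaling without mitochondrial genes, a pseudocount of 0.1, no filter, robust moderation, a replicate block, a term for Y-linked transcripts (in comparisons that hold sorted cells, chosen after seeing the data), heterozygous libraries alone, and each library left out.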

Additional observations from a re-analysis of the deposited data

How the results depend on the processing

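Direction in sorted null G3 against heterozygous cells depended on scaling. Under quantile normalization the median of the members was 0.04869, with Ndufa11 at 0.3604 and Sdhb at 0.1196. Under median scaling these were 0.1116, 0.3437 and 0.1645, and rescaled without mitochondrial genes 0.1902, 0.2989 and 0.2579, with Sdha at 0.1082. With each library left out in turn, Uqcrfs1 ran from -0.06571 to 0.2188, Atp5g3 from -0.1562 to 0.181 and Cox7a1 from -0.04716 to 1.521.

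In null G4 against heterozygous crypts the median was 0.06581 under quantile normalization, 0.1918 under median scaling and 0.2291 with the Y-linked term. Quantile normalization put Ndufa7 at -0.1678, Sdha at -0.1003, Uqcrq at -0.156, Cox7a1 at -0.4697 and Atp5d at -0.2526. Median scaling put Ndufa7 at -0.01355, Uqcrq at -0.005394, Cox7a1 at -0.3407 and Atp5d at -0.07943, and rescaling without mitochondrial genes put Cox7a1 at -0.09707. Robust moderation called 10 members higher, where 1851 of 11464 genes were. Leaving out a library called 0 to 30, with 30 only without either library labelled reactivated. Without reactivated replicate 1 and replicate 2 in turn, 5406 and 5415 of 11464 genes were higher, a larger share than among the members. With a library left out, Cox7a1 ran from -0.4679 to 0.526.

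Against null G4, Cox7a1 in libraries labelled reactivated was -0.01439 with the Y-linked term and -0.06394 to 0.09719 with a library left out. Against heterozygous libraries it was -0.2854, -0.1792 and -0.05975 under quantile, median and mitochondria-free scaling, and -0.4513 to 0.5426 with a library left out. The median there was 0.03639 under quantile normalization, and it ran from 0.2093 to 0.5599 with a library left out.

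Between sorted and unsorted heterozygous libraries the median was -0.4331 under quantile normalization and -0.3766 under median scaling. Members higher numbered 8 under each of these, where 2686 and 2508 of 11862 genes were higher. They numbered 2 without mitochondrial genes (467 genes higher), 0 with no filter (629 of 24250) and 3 in heterozygous libraries alone (1609 of 11862). Without sorted null G3 replicate 1 they numbered 3, where 1598 genes were higher and 5331 lower. Members higher numbered 0 to 3 with a library left out. Members lower then ran from 12 to 50. Sdha was -0.04407 without mitochondrial genes and -0.04545 to 0.362 with a library left out. With the Y-linked term, chosen after seeing the data for the comparisons that hold sorted cells, 24 members were lower, 0 were higher and Sdha was -0.06288. Cox7a1 and Sdhb no longer passed without unsorted heterozygous replicate 2. For the difference of null effects the median was -0.007239, -0.2011 and -0.2322 under quantile, median and mitochondria-free scaling, and -0.5767 with the Y-linked term. Without sorted null G3 replicate 3, 20 members passed as lower, where 3484 of 11862 genes did. With a library left out, Cox7a1 ran from -0.07618 to 1.492. The cause of these shifts was not tested.

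Whether replicate numbers pair the samples could not be settled. Deviations of same-numbered libraries correlated at 0.0533, -0.0299 and -0.19 in sorted cells, and at 0.219, -0.0691 and -0.124 in the pairs of unsorted groups. With 2 libraries in a group the deviations mirror each other, so libraries of unlike number gave the same values with the sign turned. With the replicate block, 2 members were called higher in null G4, where 1160 of 11464 genes were. Between sorted and unsorted heterozygous libraries 23 were called lower, where 3227 of 11862 genes were. The other counts of members called as changed in the null and reactivated comparisons were 0 as before. Groups of 2 or 3 libraries and uncertain depth limit what could be called.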
